A study of Mus musculus with 36 samples.

Results

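The monosome libraries of 2 mouse crosses, each with a different altered Ddx3x allele, were fitted together to ask which RNAs both alleles shifted in the same direction. All libraries labelled as monosome fraction were used, 12 of the 36 in the series: 6 from conditional heterozygous females (cHet) and 6 from control females. Each library came from the cortex of E14.5 (mid-neurogenesis) female embryos, with cortices of 2 embryos of one genotype pooled. The 3 cHet pools of the LoF cross were Emx1-Cre/+;Ddx3x lox/+, and its 3 control pools were Ddx3x lox/+ with no Cre. For T532M the 3 cHet pools were Emx1-Cre/+;Ddx3x-T532M lox/+ and the 3 control pools were Emx1-Cre/+. Cre was therefore present only in the cHet of the LoF cross and in both genotypes of the T532M cross, and every cHet kept 1 other Ddx3x allele. Emx1-Cre recombines in the dorsal telencephalic lineage, which leaves interneurons, vessels, blood and meninges in the pool untargeted. Whether pools shared litters or preparation days was not given in the sources used here, and p-values measure the spread between pools.

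Ddx3x is an X-linked gene for a DEAD-box RNA helicase that unwinds RNA and helps small ribosomal subunits scan structured 5′ leaders on the way to a start codon. Heterozygous changes of the human gene cause DDX3X syndrome, a neurodevelopmental disorder. In a sucrose gradient, RNAs that carry a single ribosome sediment as the monosome, lighter than polysomes and heavier than free subunits, and other complexes of like density collect there too. A gene's share of monosome reads therefore follows both how much of its RNA is present and how that RNA is distributed over ribosome numbers. Which gradient fractions were combined as monosome was not given in the sources used here.

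The genes with the smallest p-values in the pooled fit differed in base composition, so the first 60 coding bases of the leading 4 in each direction are shown, with G and C in capitals and the start codon as the first 3 letters. The 4 listed first had higher monosome levels in cHet of both crosses. They are Amigo1 (GRCm38 chr3:108186335-108192286), Ankrd13a (chr5:114774677-114806200), Mmp15 (chr8:95352268-95375080) and Plxnd1 (chr6:115954811-115995005, minus strand). The 4 listed after them had lower levels in cHet of both crosses. They are Pcp4 (chr16:96467606-96525793), Zfp933 (chr4:147822986-147848366, minus strand), Zfp120 (chr2:150114406-150136708, minus strand) and Hs6st2 (chrX:51387212-51681856, minus strand). The sequences are coding exons of GENCODE M21 transcripts, read 5′ to 3′ on the coding strand.
Amigo1: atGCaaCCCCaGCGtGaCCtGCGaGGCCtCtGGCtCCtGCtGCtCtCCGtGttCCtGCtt
Ankrd13a: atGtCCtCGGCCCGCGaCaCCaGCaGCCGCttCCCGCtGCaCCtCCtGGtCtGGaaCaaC
Mmp15: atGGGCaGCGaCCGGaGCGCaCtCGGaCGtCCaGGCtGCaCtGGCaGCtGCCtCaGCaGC
Plxnd1: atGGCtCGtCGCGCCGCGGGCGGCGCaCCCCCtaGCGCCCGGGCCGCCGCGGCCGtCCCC
Pcp4: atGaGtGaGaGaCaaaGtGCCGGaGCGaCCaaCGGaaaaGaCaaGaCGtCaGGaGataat
Zfp933: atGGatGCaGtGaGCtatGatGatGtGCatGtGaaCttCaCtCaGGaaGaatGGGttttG
Zfp120: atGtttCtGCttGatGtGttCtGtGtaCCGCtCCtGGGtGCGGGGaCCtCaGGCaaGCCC
Hs6st2: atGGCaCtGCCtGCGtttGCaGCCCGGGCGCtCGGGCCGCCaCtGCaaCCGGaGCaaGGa

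G and C made up 63.3% of the bases shown for Amigo1, 66.7% for Ankrd13a, 70.0% for Mmp15 and 86.7% for Plxnd1. They made up 48.3% for Pcp4, 43.3% for Zfp933, 58.3% for Zfp120 and 70.0% for Hs6st2. Over the 21885 coding genes with such a window the median was 55.0% (quartiles 48.3 and 63.3%). Among the lower genes Zfp120 and Hs6st2 lay above that median at this window. Their 5′ leaders held 53% and 51.5% G and C, against 74.3% in Amigo1, 76.4% in Ankrd13a, 74.4% in Mmp15 and 85.5% in Plxnd1. Among the other higher genes described below, the leaders of Prkar2a, Pdk1 and Lsm14b held 79%, 78.1% and 80.9%, but that of Man1a2 59.3%. Among the other lower genes, those of Slx4ip, Neb and Zfp65 held 53.3%, 49.4% and 47.7%, but that of Tmem135 73.9%.

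The 12 monosome libraries held 36999365 to 49049947 read pairs assigned to genes. Emx1 (46.6 to 86 CPM) and Neurod2 (485 to 822 CPM), which mark dorsal cortex and cortical neurons, were present in all 12. Levels are in CPM, the read pairs of a gene divided by library size after trimmed mean of M values (TMM) scaling within the monosome libraries. Mitochondrial transcripts took 3.82 to 10.2% of reads. LoF cHet 1 stood apart from the other cHet on the first principal component of log2 CPM (35.3% of variance). It lay at 17.8, beside LoF control 2 (16.3) and T532M controls 1 and 3 (10.5 and 15.5), while the other 5 cHet lay between -13 and -6.8. LoF controls 1 and 3 (-2.4 and 0.9) and T532M control 2 (-2.9) lay between these groups. Where leaving LoF cHet 1 out changed the sign of a printed LoF list median or correlation, or moved it by over 1.5 times, both values are given. Values and p-values of single genes are from all libraries unless stated, and some p-values moved by more. Transthyretin (Ttr), a choroid plexus transcript, was at 38 CPM in T532M cHet 1, at 25.2 and 40.4 CPM in LoF controls 1 and 3, at 7.15 CPM in LoF cHet 1 and at 1.17 CPM or less in the other 8.

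Ddx3x itself, at chrX:13280970-13294052, lay lower in cHet of the LoF cross and overlapped between genotypes in the monosome of the T532M cross. In the LoF cross it was at 352, 408 and 345 CPM in controls and at 302, 221 and 239 CPM in cHet. Every LoF cHet lay below every LoF control, and LoF cHet 1 lay closest to them. In the T532M cross it was at 362, 366 and 424 CPM in controls and at 356, 358 and 436 CPM in cHet, with full overlap. The log2 fold change of cHet over control was -0.54 ± 0.13 (SE, n = 3 and 3, unadjusted p = 0.00102 in edgeR) in LoF and 0.00 ± 0.13 in T532M, and the difference of these effects did not pass (edgeR unadjusted p = 0.0111, adjusted p = 0.358). Over both crosses it was -0.27 ± 0.11 (edgeR adjusted p = 0.335), so Ddx3x is not among the RNAs that both alleles shift. In the other fractions of the T532M pools Ddx3x lay higher in cHet. Input held 61.9, 180 and 135 CPM in T532M controls and 289, 246 and 208 CPM in T532M cHet (log2 fold change 0.98 ± 0.34, edgeR adjusted p = 0.407). Polysome held 1943, 2281 and 1525 CPM in T532M controls and 2863, 3956 and 3408 CPM in T532M cHet (0.83 ± 0.19, edgeR adjusted p = 0.552). Neither fraction overlapped between genotypes in T532M. In the LoF pools both did, with log2 fold changes of -0.32 ± 0.34 in input and -0.31 ± 0.19 in polysome. Counts cover whole genes and do not tell the T532M allele from the other. The position of the lox-flanked segment was not given in the sources used here.

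Of 18010 genes tested with cross as a block, 1 passed at an edgeR adjusted p under 0.05 (0.00555% of genes), and it was a gene of one cross only. Gm5380, at chrX:13302285-13304420 downstream of Ddx3x, had 111, 131 and 138 read pairs in the LoF cHet and 0, 2 and 1 in the LoF controls. In the 6 T532M libraries it had 0. The ratio of summed LoF read pairs, 380 against 3, was 134 (95% exact interval 45.4 to 651, counting error only), and the pooled edgeR adjusted p was 0.00208. Gm5380 passed the low-count filter only through the LoF cHet, where it is high, so ratio and p are no independent support. A fit of all 36 libraries did not call it (edgeR adjusted p = 0.99982), and DESeq2 gave it no adjusted p. For the LoF effect in a fit of both crosses with 1 term per group, edgeR called 2 genes (0.0111%), Gm5380 and Nyx. Nyx, at chrX:13466110-13489313, had a log2 fold change of 2.51 ± 0.26 in LoF (edgeR adjusted p = 0.00146) and 0.03 in T532M. Fitted on its own libraries, the LoF cross gave 1 called gene of 17349 tested, higher in cHet. No gene met the rule for a shift shared by both alleles, which asked for an adjusted p under 0.05, the same sign in both crosses and no overlap of cHet and control in either.

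Many genes lay just past that threshold. Adjusted p was under 0.06 for 15 genes higher and 1 lower in cHet, Gm5380 included, and under 0.1 for 47 higher and 4 lower. At an unadjusted p under 0.05 there were 1358 higher (7.54%) and 1000 lower (5.55%). The count moved strongly with 1 library and with the tool. Without LoF cHet 1, edgeR called 745 genes (4.06% of 18343 tested), 576 higher (3.14%) and 169 lower (0.921%). DESeq2 on all 12 libraries called 458 (2.54%), 354 higher (1.97%) and 104 lower (0.577%), and all 458 had the same sign in both crosses. Over all 18010 genes 55% did. A call on the pooled effect of these libraries favours genes with equal signs, so that agreement is no independent support. In 407 of those 458 the LoF fold change was the smaller, and the share over all genes is not given for that count.

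The genes named next had the same sign in both crosses, no overlap of cHet and control in either cross and a mean of at least 1 CPM. Among 179 such genes higher in cHet and 71 lower, the 8 with the smallest p in each direction are described. None of these 16 passed in the pooled edgeR test, where adjusted p ran from 0.0577 to 0.11. All 16 passed in DESeq2 and all 16 in edgeR without LoF cHet 1. They were chosen on these same libraries, and LoF cHet 1 lay beside some of the controls, so those passes are no independent support.

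**Figure D1:**
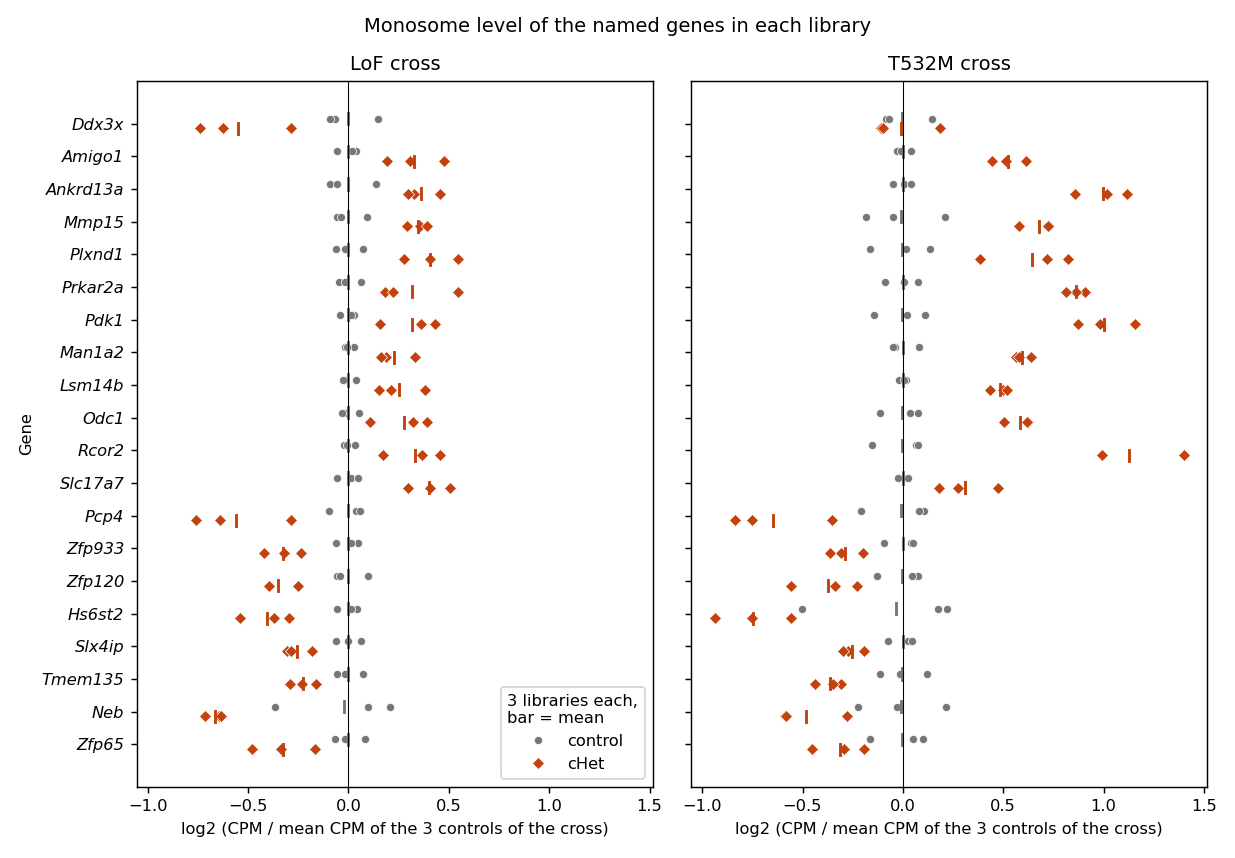
Each point is 1 monosome library, placed on the x axis by log2 of its CPM over the mean CPM of the 3 controls of its cross, for the genes on the y axis; grey circles are controls, orange diamonds cHet, and bars are means of the 3 log2 values. For every gene but Ddx3x the cHet and control points do not overlap in either cross, and T532M cHet lie farther from their controls than LoF cHet for Ankrd13a, Prkar2a, Pdk1 and Rcor2.

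The higher genes are given first, starting with membrane and adhesion proteins. Amigo1, a leucine-rich repeat protein that promotes neurite growth, was at 34.6, 32.5 and 34.1 CPM in LoF controls and 38.5, 41.8 and 47 CPM in LoF cHet. T532M controls were at 36.9, 37.4 and 38.7 CPM and T532M cHet at 53.7, 51.1 and 57.6 CPM. All 6 cHet exceeded the controls of their cross, by 1.26-fold in LoF and 1.44-fold in T532M, and the pooled log2 fold change was 0.43 ± 0.07 (edgeR adjusted p = 0.0577). Plxnd1, a semaphorin receptor of growing axons and vessels, was at 127, 140 and 132 CPM in LoF controls and 194, 161 and 176 CPM in LoF cHet. The T532M values were 131, 115 and 142 CPM in controls and 228, 168 and 213 CPM in cHet. The pooled log2 fold change of Plxnd1 was 0.53 ± 0.09 (edgeR adjusted p = 0.0577), and here LoF cHet 1 was the highest of the LoF libraries. Mmp15, a membrane-bound metalloproteinase, was at 19.6 to 21.7 CPM in LoF controls, 25 to 26.8 in LoF cHet, 17.2 to 22.6 in T532M controls and 29.2 to 32.4 in T532M cHet. Its pooled log2 fold change was 0.51 ± 0.08.

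Ankrd13a, an ankyrin-repeat protein that binds ubiquitin chains, had a fold of 2 in T532M. It was at 79.2, 92.7 and 81.1 CPM in LoF controls and 106, 104 and 116 CPM in LoF cHet. With the T532M allele it was at 184, 165 and 197 CPM, against 88, 91.5 and 93.7 CPM in the T532M controls. The LoF fold was 1.29, and the pooled log2 fold change was 0.68 ± 0.11 (edgeR adjusted p = 0.0577). Pdk1, the kinase that holds back pyruvate dehydrogenase, was at 38.7, 40.7 and 40.3 CPM in LoF controls and 53.7, 44.5 and 51.3 CPM in LoF cHet. Controls of the T532M cross had 37.6, 42.2 and 44.9 CPM and its cHet 76, 82 and 92.6 CPM. The fold was 1.25 in LoF and 2.01 in T532M. Prkar2a, a regulatory subunit of protein kinase A, was at 115 to 124 CPM in LoF controls, 135 to 174 in LoF cHet, 121 to 135 in T532M controls and 226 to 241 in T532M cHet. Man1a2, a Golgi mannosidase, and Lsm14b, a member of the LSM14 family of RNA-binding proteins, had pooled log2 fold changes of 0.41 ± 0.07 and 0.37 ± 0.06.

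The lower genes are given next, led by a pair with neuronal and cell-surface roles. Pcp4, a small calmodulin-binding protein of neurons, was at 52, 47.4 and 52.8 CPM in LoF controls and 41.6, 32.6 and 30 CPM in LoF cHet. T532M controls were at 56.7, 45.6 and 55.8 CPM and T532M cHet at 31.3, 29.5 and 41.2 CPM. Every cHet lay below every control of its cross, and the log2 fold change was -0.55 ± 0.14 in LoF and -0.63 ± 0.14 in T532M (pooled edgeR adjusted p = 0.0577). Hs6st2, a heparan sulfate sulfotransferase, was at 64, 59.8 and 62.7 CPM in LoF controls and 50.5, 48 and 42.7 CPM in LoF cHet. The T532M values were 80.7, 48.8 and 78.3 CPM in controls and 41.2, 36.2 and 47 CPM in cHet. T532M control 2, at 48.8 CPM, lay just above the highest T532M cHet, at 47 CPM, so the separation there is narrow (pooled edgeR adjusted p = 0.0875).

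Zinc-finger genes filled 3 of the 8 lower places. Zfp933 was at 45.9, 49.6 and 48.3 CPM in LoF controls and 40.7, 38.4 and 35.8 CPM in LoF cHet. With the T532M allele it was at 34.3, 35.7 and 38.4 CPM, against 45.3, 41.3 and 45.7 CPM in the T532M controls. Its log2 fold change was -0.32 ± 0.08 in LoF and -0.29 ± 0.08 in T532M, and for Zfp120 it was -0.35 ± 0.10 and -0.37 ± 0.10. Zfp65 had -0.32 ± 0.10 in LoF and -0.31 ± 0.10 in T532M. Names made of Zfp and a number, mostly given to DNA-binding zinc-finger proteins, were borne by 359 of the 18010 genes tested. Of these 359, 13 were lower in cHet of both crosses with no overlap, against 119 of all 18010 (0.661%), and 3 were higher, against 188 (1.04%). None passed in the pooled edgeR test, and the median pooled log2 fold change of the 359 was -0.08 against -0.01 for all genes. The median input value of the 359 was -0.07. Near-identical copies are common in this family, and the deposited counts do not tell how reads shared between copies were split.

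The remaining lower genes were Slx4ip, whose product binds the SLX4 nuclease scaffold, Tmem135, a membrane protein, and Neb, which encodes the muscle protein nebulin. Slx4ip had a log2 fold change of -0.26 ± 0.08 in LoF and -0.25 ± 0.08 in T532M, and Tmem135 had -0.23 ± 0.09 and -0.36 ± 0.09. Neb was low throughout, at 3.45 to 5.13 CPM in LoF controls, 2.7 to 2.85 in LoF cHet, 3.24 to 4.4 in T532M controls and 2.52 to 3.12 in T532M cHet.

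Across all genes, same-direction shifts outnumbered opposite ones. With no overlap of cHet and control in either cross, 188 genes were higher in both (1.04%), 119 were lower in both (0.661%) and 132 went opposite ways (0.733%). With an unadjusted edgeR p under 0.05 in each cross, 92 were higher in both (0.511%), 52 lower in both (0.289%) and 76 opposite (0.422%). Those 144 same-direction genes were 14.7% of the 981 genes at that level in LoF (5.45% of genes tested) and 4.84% of the 2977 in T532M (16.5%). Without LoF cHet 1 the counts were 301 higher in both (1.67%), 121 lower in both (0.672%) and 89 opposite (0.494%). Over all 18010 genes the LoF and T532M log2 fold changes had a Spearman correlation of 0.09 (0.17 without LoF cHet 1). The Pearson correlation was -0.20, and 55% had the same sign. Over the 11195 genes with a mean of at least 5 CPM, the Spearman correlation was 0.25 (0.38 without LoF cHet 1), and 58.4% had the same sign. This is a description across genes, which are not independent replicates. The crosses share no library, but genes share length, base composition and level in both.

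**Figure D2:**
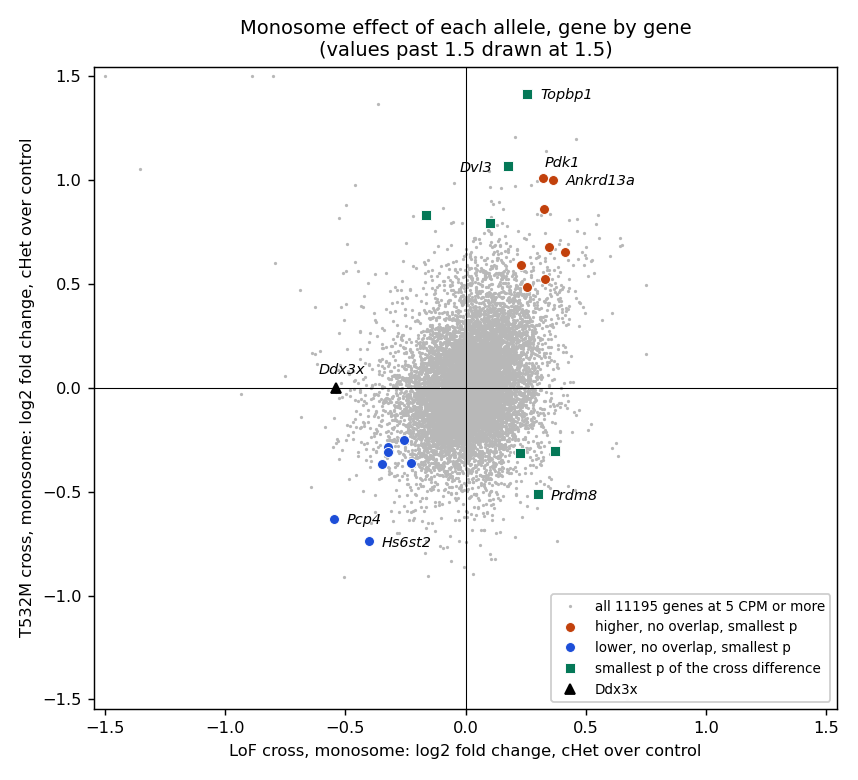
Each grey point is 1 of 11195 genes with a mean of at least 5 CPM in the monosome, with its log2 fold change of cHet over control in LoF on the x axis and in T532M on the y axis; coloured points are the named genes at 5 CPM or more. The orange and blue points lie in the quadrants of equal sign and Ddx3x lies at -0.54 in LoF and 0.00 in T532M.

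More genes were called in the T532M cross alone, and these were read in the LoF libraries. In the 12-library fit 413 genes passed for T532M (2.29% of 18010), 349 higher (1.94%) and 64 lower (0.355%), by edgeR with adjusted p under 0.05. Without T532M control 2 the count was 997 and without T532M control 1 it was 122. Leaving out T532M control 3 or any single T532M cHet gave 158 to 266, and leaving out LoF control 3 gave 265. Since that fit shares its estimate of spread between the crosses, each cross was also fitted on its own 6 libraries. T532M alone gave 288 higher (1.68% of 17187) and 19 lower (0.111%). With replicate number as a block it gave 710 higher (4.13%) and 166 lower (0.966%).

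In LoF fitted alone, 254 of the 288 higher genes had a positive fold change (88.2%, against 51.1% of the 16935 genes tested in both), with a median log2 fold change of 0.12. An unadjusted p under 0.05 in LoF was reached by 28 of the 288 in the higher direction (9.72%, against 2.28%) and by 0 in the lower (2.85%). Without LoF cHet 1, 241 of the 288 were positive (83.7%, against 49.4%) and 99 had an unadjusted p under 0.05 in the higher direction (34.4%, against 8.64%). Of the 19 lower genes, 8 were negative in LoF (42.1%, against 48.9%) and 13 without LoF cHet 1 (68.4%, against 50.6%). Taken from the fit with the block, 606 of 710 higher genes were positive in LoF (85.4%) and 106 of 166 lower genes negative (63.9%). Whether the higher and lower sets differ in how far they carry over was not tested.

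**Figure D3:**
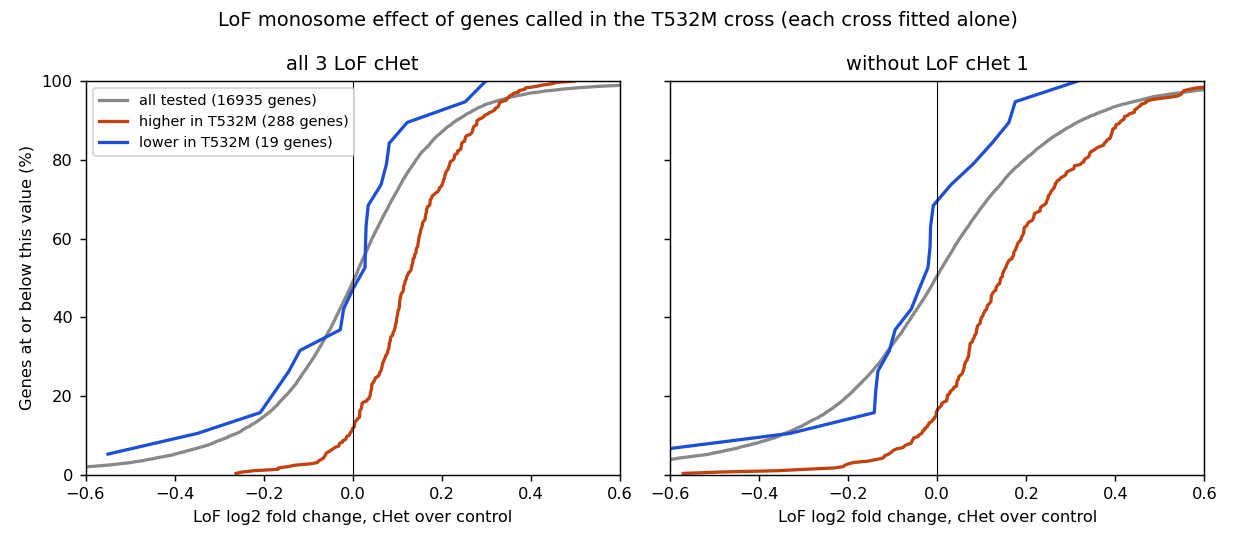
Cumulative share of genes (y axis, percent) by LoF log2 fold change of cHet over control (x axis), each cross fitted on its own libraries, with all 3 LoF cHet on the left and without LoF cHet 1 on the right. The curve of the 288 genes called higher in T532M lies to the right of the curve of all 16935 genes over most of its range, with medians of 0.12 and 0.00 on the left, and the curve of the 19 called lower has a median of 0.03 on the left and -0.02 on the right.

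The effects of the alleles were also tested against each other. No gene passed for the LoF effect minus the T532M effect (0% of 18010 in edgeR and 0 in limma-voom, 115 in DESeq2), and 1820 had an unadjusted edgeR p under 0.05 (10.1%). The smallest p-values with T532M above LoF belonged to Topbp1, Zfp628, Samd1 and Dvl3, each with edgeR adjusted p = 0.113. Topbp1, a scaffold of DNA replication and checkpoint signalling, was at 116, 140 and 129 CPM in LoF controls and 166, 136 and 158 CPM in LoF cHet. Controls of the T532M cross had 119, 156 and 133 CPM and its cHet 332, 346 and 410 CPM, a 2.67-fold difference. Dvl3, a dishevelled protein of Wnt signalling, was at 123 to 145 CPM in LoF controls, 140 to 155 in LoF cHet, 132 to 148 in T532M controls and 258 to 337 in T532M cHet. Samd1 and Zfp628 had log2 fold changes of 0.10 and -0.17 in LoF and of 0.79 and 0.83 in T532M.

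The smallest p-values with LoF above T532M belonged to Prdm8, Uvssa, Sarm1 and Asb5, where cHet and control did not overlap in either cross and the directions were opposite. Prdm8, a transcriptional regulator of cortical projection neurons, was at 45.8, 46.2 and 44.2 CPM in LoF controls and 54.6, 56.3 and 56.7 CPM in LoF cHet. T532M controls were at 65.8, 52.4 and 70.3 CPM and T532M cHet at 41.6, 44.7 and 45.7 CPM. The T532M controls of Prdm8 lay above the LoF controls, and the difference of the effects had an edgeR adjusted p of 0.113. Sarm1, the NAD hydrolase that drives axon degeneration, was at 22.1 to 24.7 CPM in LoF controls, 28.1 to 33.9 in LoF cHet, 27.5 to 28 in T532M controls and 19.8 to 26.1 in T532M cHet.

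Transcripts known from earlier work to respond to DDX3X had a higher median than all genes. Of 14 tested, none passed in the pooled edgeR test, 7 had an unadjusted p under 0.05 in the higher direction (7.54% of all genes did) and 0 in the lower (5.55%), and the median log2 fold change was 0.19 against -0.01 for all genes. The list was chosen with results of these data known, so it is no independent evidence of direction. Odc1, the rate-limiting enzyme of polyamine synthesis, was at 403, 398 and 422 CPM in LoF controls and 439, 535 and 510 CPM in LoF cHet. The T532M values were 347, 395 and 385 CPM in controls and 578, 531.8 and 576 CPM in cHet. All 6 cHet exceeded their controls, with a pooled log2 fold change of 0.43 ± 0.08 (edgeR adjusted p = 0.0577). Rcor2, a corepressor of the LSD1 demethylase complex in neural progenitors, was at 136, 131 and 133 CPM in LoF controls and 150, 183 and 172 CPM in LoF cHet. With the T532M allele it was at 310, 309 and 410 CPM, against 140, 163 and 164 CPM in the T532M controls, and the pooled edgeR adjusted p was 0.0653. The other 5 were Csnk1e (0.40), Dvl3 (0.62), Klf4 (0.47), Hnrnpf (0.25) and Ccne1 (0.31), given as pooled log2 fold changes. Ccne1 and Klf4 had 0.06 and 0.15 in LoF and 0.56 and 0.79 in T532M. Rac1, Dvl1, Prkra, Etv5, Tgfb1 and Gnb2 lay between -0.27 and 0.12.

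Among the machinery of translation, the mRNAs of cytosolic ribosomal proteins had small differences, mostly of one sign. The pooled log2 fold change was positive for 74 of 77 (48.4% of all genes), with a median of 0.08, which was 0.03 after a correction that took out each library's trend with coding length. Of the 77, 58 were positive in both crosses (27.1% of all genes) and 0 negative in both (27.9%). Only 1 reached an unadjusted p under 0.05. The LoF median was 0.07 with all libraries and 0.21 without LoF cHet 1, against 0.10 in T532M, while the input median was -0.04. Initiation factors were mixed, with 3 higher (7.54% of all genes) and 6 lower (5.55%) of 36 at an unadjusted p under 0.05 and a median of -0.04. Eif6, which keeps large ribosomal subunits from joining, had 0.37 ± 0.13, and Eif2s3x, the X-linked subunit of the factor that brings initiator tRNA, had -0.24 ± 0.08. Aminoacyl-tRNA synthetases were negative in both crosses for 16 of 20 (27.9% of all genes), with a median of -0.09 and 1 at an unadjusted p under 0.05 (Qars, -0.17 ± 0.07). Of 28 DEAD and DEAH box helicases, the family of DDX3X itself, 18 were negative in both crosses (27.9% of all genes) and 0 positive in both (27.1%). Their median was -0.08, and -0.05 after the coding length correction. Ddx6, a repressor of translation in P-bodies, had -0.21 ± 0.07 and Dhx36, which unwinds G-quadruplexes, -0.22 ± 0.09, neither past the adjusted threshold with all libraries. Without LoF cHet 1 the edgeR adjusted p was 0.0831 for Ddx6 and 0.0429 for Dhx36. No member of these 4 lists passed in the pooled edgeR test.

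Metabolic lists were led by Pdk1. Of 19 hypoxia and glycolysis genes, 16 had a positive pooled fold change (48.4% of all genes), and 5 had an unadjusted p under 0.05 in the higher direction (7.54%) and 0 in the lower (5.55%). The median was 0.13, and 0.08 after the coding length correction. After Pdk1 these were Tpi1 (0.22 ± 0.07), Bnip3 (0.43 ± 0.15), Ldha (0.14 ± 0.07) and Vegfa (0.15 ± 0.07). The list's median was 0.06 in LoF and 0.22 in T532M, and 0.10 in input and 0.17 in polysome. In polyamine synthesis Srm, spermidine synthase, had 0.44 ± 0.13 (edgeR adjusted p = 0.168, and 0.0112 without LoF cHet 1), while Oaz1, an antizyme that lowers ODC, had -0.18 ± 0.08. Nuclear genes of oxidative phosphorylation had a median of 0.00 over 46, with -0.08 in LoF and 0.09 in T532M, and the LoF value was 0.07 without LoF cHet 1.

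Markers of cortical cell types gave no shared shift of a whole list. Slc17a7, the vesicular glutamate transporter VGLUT1, was at 101, 95.7 and 103 CPM in LoF controls and 132, 123 and 142 CPM in LoF cHet. Controls of the T532M cross had 103, 101 and 105 CPM and its cHet 125, 117 and 143 CPM. Its log2 fold change was 0.41 ± 0.09 in LoF and 0.32 ± 0.09 in T532M, and the pooled edgeR adjusted p was 0.0577. Rbfox3, which encodes the neuronal marker NeuN, had 0.19 ± 0.08. The list's median was nevertheless -0.04 over 23, and Foxp2 (-0.25 ± 0.08), Mef2c (-0.29 ± 0.10), Dcx (-0.29 ± 0.13) and Sox5 (-0.26 ± 0.12) had an unadjusted p under 0.05 in the lower direction (5.55% of all genes). The 4 lay between -0.08 and 0.05 in LoF and between -0.58 and -0.43 in T532M. Radial glia markers had a median of -0.11 over 19 (-0.05 after the coding length correction), with Slc1a3, a glutamate transporter, at -0.24 ± 0.07 and Lhx2, a cortical selector gene, at 0.27 ± 0.11. Axon guidance genes had a median of -0.15 over 24, of which 4 (Nrp1, Epha4, Sema3a and Epha3) had an unadjusted p under 0.05 in the lower direction (5.55% of all genes) and 0 in the higher (7.54%). The axon guidance median was -0.01 in LoF (-0.07 without LoF cHet 1) and -0.23 in T532M. Of the 24, 17 had opposite signs in the 2 crosses (45% of all genes). In these bulk monosome libraries fewer cells of a type, less RNA per cell and a changed distribution of that RNA over ribosome numbers cannot be told apart.

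Choroid plexus and red cell markers had opposite signs in the 2 crosses more often than not. All 16 choroid plexus and cortical hem genes had opposite signs, with a median log2 fold change of -0.85 in LoF (-1.76 without LoF cHet 1) and 2.39 in T532M, and none passed. Their summed level was 71.7 to 137 CPM in LoF controls and 48.3 to 80 in LoF cHet, and 45.2 to 57.7 in T532M controls and 38.4 to 178 in T532M cHet, where the highest was the pool rich in Ttr. Red cell genes had opposite signs for 11 of 12, against 45% of all genes. Their median was -0.62 in LoF (-0.86 without LoF cHet 1) and 0.17 in T532M, and their summed level was 2248 to 2880 CPM in LoF controls, 1302 to 2156 in LoF cHet, 985 to 1598 in T532M controls and 1264 to 1553 in T532M cHet. Mitochondrially encoded mRNAs had medians of -0.53 and 0.17. Interneuron and ventral forebrain markers were negative in both crosses for 11 of 22 (27.9% of all genes) and opposite for 10 (45% of all genes). Their medians were -0.29 in LoF (-0.50 without LoF cHet 1) and 0.00 in T532M, with 593, 764 and 533 CPM summed in LoF controls and 631, 432 and 471 CPM in LoF cHet, and 453 to 615 CPM in T532M controls and 384 to 736 in T532M cHet. The 4 pools with Ttr above 10 CPM in input were LoF controls 1 and 3, LoF cHet 1 and T532M cHet 1. Without them LoF control 2 was the only LoF control in the fit, so no count of called genes is given. In that fit the 19 described genes (the 16 above with Odc1, Rcor2 and Slc17a7) kept their directions. Those 19 were chosen on values from the same libraries, which made a change of direction unlikely.

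Genes with GC-rich 5′ leaders had higher monosome fold changes in cHet of both crosses. Over 9994 genes with leader, coding and trailer annotation and at least 5 CPM, leader GC content had a Spearman correlation with the log2 fold change of 0.14 in LoF (0.10 without LoF cHet 1) and 0.27 in T532M. From the quintile of genes with the lowest leader GC (26.3 to 56.9%) to the quintile with the highest (74.3 to 94.7%), the median log2 fold change went from -0.01 to 0.04 in LoF and from -0.07 to 0.09 in T532M. Input of the same pools showed a gradient too: its pooled median went from -0.05 to 0.04 over the same quintiles, and in polysome it went from 0.00 to 0.02. In the highest quintile 64.3% of genes were positive in LoF and 66.2% in T532M. The GC content of the coding sequence had correlations of 0.22 in LoF and 0.15 in T532M, trailer GC content of 0.23 and 0.09, and leader length of 0.10 and 0.07. In LoF the GC content of coding sequence and trailer thus had larger correlations than that of the leader. The 171 annotated genes higher in both crosses with no overlap had a median leader GC of 75.2%, against 65.6% over all 9994 and 57.7% in the 66 lower in both. Median coding GC was 55.7%, 52.6% and 46.1% in the same order.

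Coding length gave a second gradient, and here the LoF value moved with LoF cHet 1 left out. The correlation with the log2 fold change was -0.29 in T532M and -0.11 in LoF, which became -0.32 without LoF cHet 1. In T532M the median went from 0.11 in the quintile with the shortest coding sequences (114 to 771 bases) to -0.07 in the quintile with the longest (2610 to 22100 bases). In LoF these medians were 0.04 and -0.01, and 0.13 and -0.06 without LoF cHet 1. RNAs with a high ratio of polysome to monosome in the controls of the other cross, whose libraries are not in the fold change, had lower values, with correlations of -0.10 in LoF (-0.28 without LoF cHet 1) and -0.27 in T532M. Each of these is a description across genes, and leader GC, coding GC and length are related to one another.

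**Figure D4:**
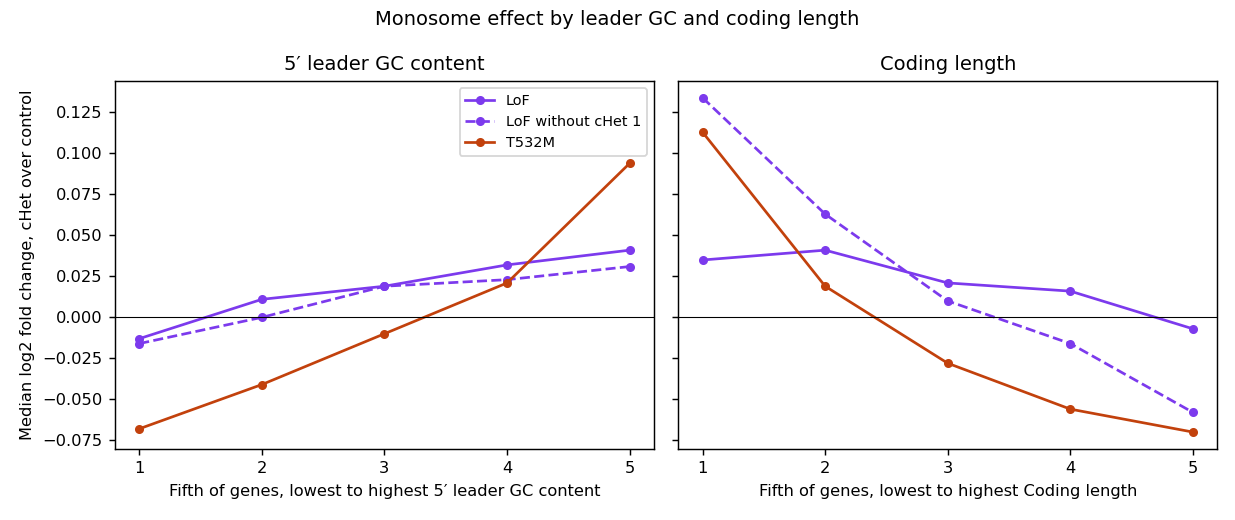
Median log2 fold change of cHet over control in the monosome (y axis) in 5 equal groups of the 9994 annotated genes, ordered by 5′ leader GC content on the left and by coding length on the right. Both crosses go up with leader GC, from -0.01 to 0.04 in LoF and from -0.07 to 0.09 in T532M, and the dashed line for LoF without cHet 1 goes down with coding length from 0.13 to -0.06.

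The gradients were read in each library as the correlation, across the 9994 genes, of the feature with the library's log2 ratio to the mean of its cross. For leader GC the T532M cHet gave 0.20, 0.14 and 0.22 and the T532M controls -0.20, -0.23 and -0.14, with no overlap. The LoF cHet gave 0.05, -0.02 and 0.13 and the LoF controls -0.10, -0.02 and -0.17, which meet at -0.02. For coding length the LoF cHet gave 0.52, -0.42 and -0.27 and the LoF controls -0.38, 0.42 and -0.13, and the T532M cHet gave -0.40, -0.16 and 0.05 against 0.14, -0.14 and 0.43 in controls. Coding length thus separated libraries of the same genotype as widely as it separated genotypes, whereas leader GC separated genotypes in T532M and nearly so in LoF. This was not particular to leader GC. Coding GC in T532M gave 0.16, 0.13 and 0.02 in cHet and -0.16, -0.07 and -0.07 in controls, and leader length did not overlap there either. Both overlapped in LoF. Trailer GC in LoF gave -0.03, 0.21 and 0.11 in cHet and -0.04, -0.15 and -0.18 in controls, and it overlapped in T532M. LoF control 2 (0.42) stayed in the fits without LoF cHet 1 (0.52), so values from those fits carry an imbalance of length between genotypes. Correlations without LoF control 2 are not given. With coding length fitted in each library and removed, edgeR called 54 of 13444 annotated genes (0.402%), 50 higher (0.372%) and 4 lower (0.0298%), of which 38 higher and 3 lower did not overlap in either cross before the correction.

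**Figure D5:**
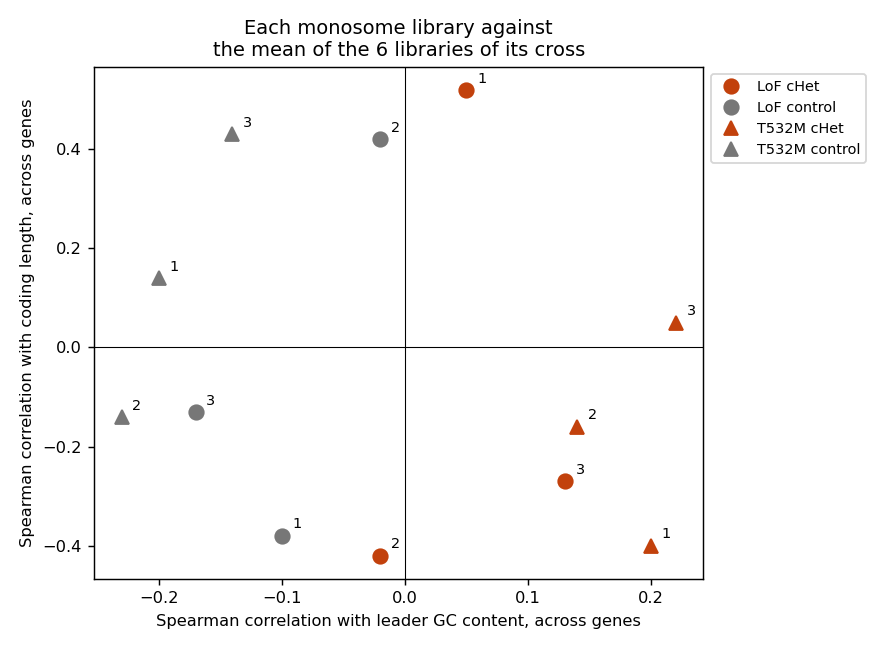
Each point is 1 of the 12 monosome libraries, with replicate numbers beside the points, placed by the Spearman correlation across 9994 genes of its log2 ratio to the mean of its cross with 5′ leader GC content (x axis) and with coding length (y axis). T532M cHet lie at 0.14 to 0.22 on the x axis and T532M controls at -0.23 to -0.14, and LoF cHet 1 lies at 0.52 on the y axis, above every other library.

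The shared shift was set beside the other fractions of the same pools. No gene passed over both crosses in input (0% of 17543 in edgeR, 609 or 3.47% at an unadjusted p under 0.05, 3 in DESeq2), in polysome (0% of 15375, 825 or 5.37% unadjusted, 1 in DESeq2) or for the monosome effect minus the input effect (0% of 18833, 538 or 2.86% unadjusted, 0 in DESeq2). The pools are the same in all 3 fractions, but the fit of monosome minus input had no term for pool and treated its libraries as independent. The alternative with a term for each pool also called 0. Values are given side by side. Ankrd13a had a pooled log2 fold change of 0.68 in monosome, 0.28 in input and 0.07 in polysome. Amigo1 had 0.43, 0.16 and 0.04, Plxnd1 0.53, 0.21 and 0.18, and Rcor2 0.74, 0.28 and -0.07, in the same order. For Pdk1 the values were 0.67, 0.34 and 0.33, and for Odc1 0.43, 0.28 and 0.11. Mean input of Pdk1 was 39.7 CPM in LoF controls and 37.9 in LoF cHet, against 38.1 in T532M controls and 63.5 in T532M cHet. Pcp4 had -0.59 in monosome, -0.37 in input and 0.07 in polysome, and Zfp933 had -0.31, -0.35 and -0.04. The named genes were chosen on their monosome values, which favours a larger value in monosome than in input, so no test of that difference is given for them. Among the named lower genes, Zfp933 and Neb had pooled input values at least as low as their monosome values, at -0.35 ± 0.30 and -0.64 ± 0.32. Mean input of Zfp933 was 8.35 CPM in LoF controls and 4.33 in LoF cHet, but 6.48 in T532M controls and 7.62 in T532M cHet. For Neb these means were 0.75, 0.35, 0.64 and 0.55 CPM in the same order, so they rest on few reads.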

How the data were processed

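RNA sequencing of monosome fractions was analysed from the raw counts that the authors deposited, given as read pairs per gene for 55487 genes. Fragments were assigned to full gene models, so that intronic reads count too, with featureCounts 2.0.3 in its reverse-strand mode and the GENCODE M25 models of GRCm38, per the file headers. The submitters' processing notes list STAR 2.7.11a, DESeq2 1.34.0, FastQC 0.11.7 and Subread 2.0.3 as tools. No source used here states how reads in overlapping same-strand genes, or shared by similar copies, were split.

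From these counts, 12 monosome libraries were fitted with edgeR 4.0.16 under R 4.3.3 (quasi-likelihood F test, TMM scaling, filterByExpr, Benjamini-Hochberg over all tested genes, threshold 0.05), with terms for cross and genotype. A fit with 1 term per group gave the effects in each cross and their difference, and each cross was also fitted alone. Same-fraction fits were made for input and polysome, and input and monosome were fitted together on 24 libraries. DESeq2 1.42.0, limma-voom (limma 3.58.1), other scalings, no filter, a replicate block, left-out pools and corrections for coding length and leader GC were alternatives. The corrections and the fits of single crosses were chosen after seeing the data. The fit was tested on simulated data.

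Named genes are Ddx3x and, with at least 1 CPM, an assigned name, the same sign and no overlap in both crosses, up to 12 called genes in each direction. With fewer than 5 called, the 8 smallest p were taken. The 4 smallest p of the cross difference in each direction were added, as were up to 4 members of each list that passed or otherwise the 2 with the smallest p. Other genes named were chosen after their values were seen. Of 823 entries in 39 gene lists, 819 matched a gene. The question, members and lists were chosen with earlier results of these data known. Leader, coding and trailer features came from GENCODE M21 on the same build, 1 coding transcript per gene. Deviations of same-numbered libraries correlated at 0.27, 0.28 and 0.24 in T532M and at -0.62, -0.68 and 0.14 in LoF. The labels state no pairing. All 3 T532M values were over 0.1, so the block is given beside the T532M count, and otherwise as an alternative. The values of some single genes are not reported here.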

Additional observations from a re-analysis of the deposited data

Results flagged for a closer look

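Of the named genes, 4 had cHet and control apart in both crosses but in opposite directions. Prdm8 had a log2 fold change of 0.30 in LoF and -0.51 in T532M, Uvssa 0.23 and -0.32, Sarm1 0.37 and -0.30, and Asb5 0.64 and -0.63. The test of the difference between crosses did not pass for any of them (edgeR adjusted p = 0.113, 0.19, 0.19 and 0.221). They were named for the size of that difference, so the opposite directions describe these libraries. Over all 18010 genes, 132 (0.733%) were apart in opposite directions in this way.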

How the results depend on the processing

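The pooled count of 1 gene stayed at 1 under RLE or upper-quartile scaling, without mitochondrial and ribosomal RNA models and with the replicate block. It was 0 with limma-voom, 0 with no cross block, 6 with the coding length and leader GC correction, 54 with coding length alone, 99 without pools with Ttr in input, 167 in a fit of all 36 libraries, 285 with no low-count filter and 458 in DESeq2. The shared count of 0 stayed 0 with limma-voom and became 6, 43, 98, 71, 91 and 192 with the corrections for length and leader GC, for length, without Ttr pools, in all 36 libraries, with no filter and in DESeq2. The cross difference of 0 became 2 without Ttr pools, 3 with either correction, 146 with no filter and 115 in DESeq2. In DESeq2 the input count was 3 and the polysome count 1, and all other alternatives run for input, polysome and monosome over input gave 0. The corrections tested fewer genes. The cause of the other moves was not tested.

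Leaving out each pool in turn, the pooled count ran from 1 to 745, the shared count from 0 to 546 and the cross difference from 0 to 63. The highest pooled and shared values came without LoF cHet 1, where 1 LoF cHet fewer was in the fit. Without LoF cHet 2 the pooled and shared counts were 8 and 7, and without LoF control 2 they were 2 and 1. The 63 came without T532M control 2. The other pools left the pooled count at 1 and the shared count at 0.

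All 11 higher and 8 lower genes described (the 16 named, with Odc1, Rcor2 and Slc17a7) kept their direction under every alternative run. These genes were chosen on values from the same libraries, which made a change of direction unlikely. Their adjusted p was under 0.05 for 19 in DESeq2, 19 without LoF cHet 1, 17 with no filter, 14 with the length correction, 12 in all 36 libraries and 5 with both corrections. It ran from 0.173 to 0.336 with the replicate block.

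Replicate numbers carry no stated pairing, and the replicate block gave a pooled count of 1. The T532M count of 413 was 122 with the replicate block in both crosses, 307 in the T532M libraries alone and 876 there with the replicate block. It was 785 with no filter and 935 in DESeq2, ran from 265 to 607 as LoF pools were left out in turn and from 122 to 997 as T532M pools were. RLE, upper-quartile scaling and limma-voom gave 381 to 398. With 3 pools a group, many genes sat close to the threshold. Genes at a few CPM, such as Neb and Gm5380, rest on few reads, and gene-span counts include introns.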
